A study of Oryzias latipes with 20 samples.

Results

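The gene pomc encodes pro-opiomelanocortin, the precursor of corticotropin, the melanotropins and beta-endorphin. It was taken from a table of 22615 genes by its symbol, as 1 entry, and was measured in all 20 libraries. The libraries come from medaka (Oryzias latipes), a small teleost fish used to study seasonal and daily timing. Each was made from polyadenylated RNA of a tissue block that joined the ventral telencephalon with the hypothalamus and the pituitary. The sample titles hold the word constant without saying what was held constant. Tissue was taken at 0, 7, 30, 60, 90, 120 and 150 days after a change to conditions abbreviated LW, which the labels do not explain. There were 3 libraries a day and 2 at day 60. No photoperiod, strain, sex, age, hour of sampling or fish per library was given in the sources used here. The groups differ only in the day, and no series without the change is analysed here, so time and the LW conditions cannot be told apart. Levels are FPKM, fragments scaled to the length of the transcript and to the fragments of the library, so they can be compared between genes.

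Prohormone convertases cut pro-opiomelanocortin into different peptides in different cells. Corticotropes of the anterior pituitary release corticotropin, which drives cortisol output in the stress response, and melanotropes of the intermediate lobe release alpha-melanotropin, which darkens the skin of fish. Some hypothalamic neurons also make the precursor, where its peptides curb feeding, so RNA from both pituitary and hypothalamus can enter the level measured in the joined block.

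Markers of the pituitary, hypothalamus and telencephalon were detected in the block, as its label says. The summed FPKM of 16 tested pituitary markers other than hormones lay between 131.45 and 138.83 at day 150, against 110.29 to 117.76 at day 0. It lay between 123.31 and 145.1 at day 30 and between 126.34 and 140.47 at day 120. Day 60 replicate 1 stood apart from the rest. There this sum was 97.95, against 110.29 to 145.1 in the other 19 libraries, and 2 pituitary transcription factors were close to 0, with pitx1 at 0.15 FPKM and lhx3 at 0.40 FPKM. Total FPKM per library was between 374770 and 405678. The read depth is unknown, and precision rests on how many samples each day has. Whether libraries of a day came from different fish is not stated, so a p-value speaks of the spread among these libraries, which may be technical.

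The level of pomc at day 150 stood above that of every earlier library, yet with all 20 libraries no comparison between days passed the test across all genes. At day 150 pomc was at 2320.14, 4420.34 and 2191.67 FPKM. The other 17 libraries lay between 88.56 FPKM, in day 60 replicate 1, and 1997.72 FPKM, in day 0 replicate 2. The day 150 mean of 2977 FPKM was 2.95 times the mean of those 17 libraries, which was 1008 ± 472 FPKM (SD). Of the 15947 genes tested, 61 (0.383%), pomc included, had all 3 day 150 libraries above the other 17, and 0 of the 7 other pituitary hormone genes tested were among them.

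The libraries of day 0 held 615.81, 1997.72 and 889.10 FPKM of pomc, replicates 1 to 3 in order. Those of day 7 were closer together, with 740.94, 513.17 and 868.26 FPKM. The libraries of day 30 held 1072.87, 1182.19 and 1713.05 FPKM. The range of day 30 lies inside that of day 0, while day 7 overlaps day 0 and lies below day 30. The share of all genes with day 7 below day 30 was not computed, and pomc passed no test between these days. At day 60 the 2 libraries were far apart, at 88.56 and 760.24 FPKM. Day 90 gave 551.73, 1552.56 and 988.61 FPKM for pomc. Day 120 gave 1312.44, 1061.34 and 1221.11 FPKM. Day 120 was the tightest day and lies inside the range of day 90.

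**Figure D1:**
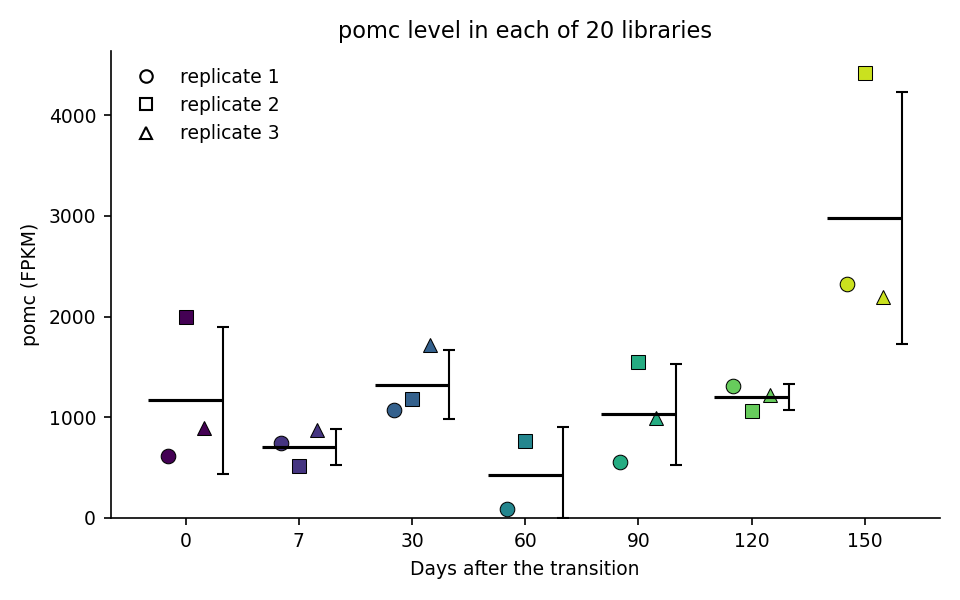
Level of pomc in FPKM (vertical axis, linear) in each of the 20 libraries, by days after the change to LW conditions. Each point is 1 library, the line is the day mean and the bar beside it is 1 SD, cut at 0 for day 60, where the SD exceeds the mean. The 3 libraries of day 150, between 2191.67 and 4420.34 FPKM, lie above all others.

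The day means, in rising order, were 424.4 ± 474.9 FPKM at day 60 (SD, n = 2), 707 ± 180 at day 7, 1031 ± 502 at day 90, 1168 ± 732 at day 0, 1198 ± 127 at day 120, 1323 ± 342 at day 30 and 2977 ± 1251 at day 150 (SD, n = 3 each). Every neighbouring pair in this order overlapped in its libraries except day 150 and day 30. Over all 20 libraries the mean was 1303 FPKM and the median 1067 FPKM. The highest library was 49.9 times the lowest, and 8.61 times the next lowest, which was day 7 replicate 2 with 513.17 FPKM.

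Agreement between libraries of 1 day varied widely. The coefficient of variation of pomc within a day was 62.7% at day 0, 25.4% at day 7 and 25.9% at day 30. It was 112% at day 60 (n = 2), 48.7% at day 90, 10.6% at day 120 and 42.0% at day 150. The residual SD of pomc around its day means was 0.815 on the log2 scale, above that of 97.7% of the genes tested, whose median was 0.157. Other hormone genes were also wide, with a within-day SD of 1.71 on the log2 scale for LOC101172582 (prolactin-1), 1.35 for LOC101171460 (somatotropin), 0.74 for cga and 0.57 for lhb.

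The abundance of pomc put it among the leading genes of the whole block. Its rank by FPKM among all genes was 69, 7 and 17 in the libraries of day 0, 12, 14 and 12 at day 120, and 4, 1 and 4 at day 150. In day 150 replicate 2 its 4420.34 FPKM exceeded LOC105354744 at 4124.92 FPKM and gb at 2636.43 FPKM. It was among the 20 most abundant genes in 14 of the 20 libraries, and in day 60 replicate 1 it had rank 623. Its share of the total FPKM of a library lay between 0.0226% and 1.09%, with a mean of 0.749% at day 150.

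Differences between days were tested with limma on log2(FPKM + 1), with p-values adjusted by the Benjamini-Hochberg method over the 15947 genes whose mean reached 1 FPKM. Over all 7 days the moderated F statistic of pomc was 4.81 (limma, adjusted p = 0.202), in a test that called 0.0941% of genes. Over days 7 to 150 it was 5.77 (limma, adjusted p = 0.166), a test that called 0.0941% of genes as well. The slope was 0.24 ± 0.12 per 30 days on the log2 scale (SE, limma, adjusted p = 0.455), and 0.00627% of genes passed. The slope over days 0 to 120 alone was 0.04, a setting chosen after seeing the data. Without day 60 replicate 2, which leaves the low library alone for its day and assumes that it varies like the others, F over all days was 12.9 (limma, adjusted p = 0.0201) and F over days 7 to 150 was 15.5 (limma, adjusted p = 0.0127). Without day 60 replicate 1, F over all days was 4.72 (limma, adjusted p = 0.245).

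Each later day was set against day 0, so these 6 comparisons share its 3 libraries. For day 150 the log2 difference was 1.45 (95% interval 0.18 to 2.73, limma, adjusted p = 0.467). This test called 0% of genes, with 1532 genes at an unadjusted p under 0.05, of which pomc ranked 962. All 3 libraries of day 150 exceeded all 3 of day 0, as was the case for 1488 genes (9.33%), pomc included. For day 60 the log2 difference was -1.98 (95% interval -3.41 to -0.56, limma, adjusted p = 0.582), against 0.00627% of genes called. That value turned on 1 library. Leaving out day 60 replicate 1 gave -0.44, and leaving out its replicate 2 gave -3.53 (limma, adjusted p = 0.0226). For day 7 it was -0.58 (95% interval -1.85 to 0.70), for day 30 0.33 (-0.95 to 1.61), for day 90 -0.12 (-1.40 to 1.15) and for day 120 0.21 (-1.06 to 1.49). Their adjusted p-values in limma were 0.833, 0.914, 0.978 and 0.953 in the same order, and each interval spans 0. These 4 tests called 0.0627%, 0%, 0% and 0.0314% of genes.

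**Figure D2:**
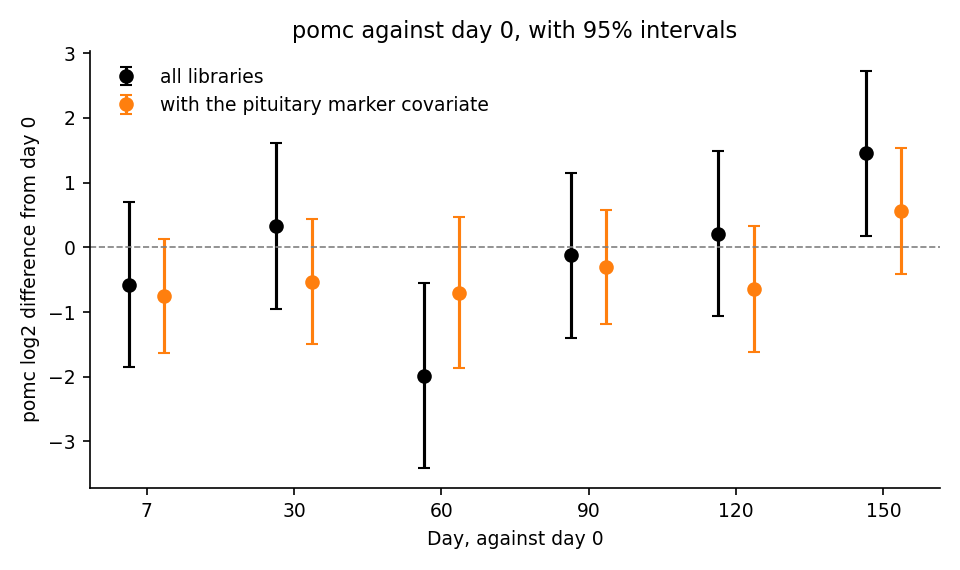
Log2 difference of pomc, each later day minus day 0 (vertical axis, log2(FPKM + 1)), by day (horizontal axis). The 95% intervals are from limma, in black for all libraries and in orange with the mean log2 level of the pituitary markers as a covariate. The interval of day 150 lies above 0 in black, at 0.18 to 2.73, and crosses 0 in orange, at -0.41 to 1.54. The orange values lean on day 60 replicate 1, where the covariate was far below its level in all other libraries.

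Between consecutive days pomc passed no test either. Day 150 was 1.24 above day 120 on the log2 scale (95% interval -0.04 to 2.52, limma, adjusted p = 0.577), and 0% of genes were called, with 1424 at an unadjusted p under 0.05. Day 30 stood 0.91 above day 7 (95% interval -0.37 to 2.18, limma, adjusted p = 0.725; 0.0188% called). Day 60 against day 30 gave -2.31 (limma, adjusted p = 0.428; 0.00627% called), and day 90 against day 60 gave 1.86 (limma, adjusted p = 0.497; 0.0376% called). Without day 60 replicate 2 these 2 values were -3.86 (limma, adjusted p = 0.00798) and 3.40 (limma, adjusted p = 0.0244). Without day 60 replicate 1 they were -0.77 and 0.32. Day 120 differed from day 90 by 0.33 (95% interval -0.94 to 1.61, limma, adjusted p = 0.952; 0.0251% called).

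The summed marker levels of the tissues in the block did not overlap between the libraries of day 150 and day 0. The sums of day 120 overlapped those of day 150. Among single genes tested, 9.33% had all 3 libraries of day 150 above all 3 of day 0. No such share was computed for sums or for the downward direction. Of the 16 tested pituitary markers, 14 were higher at day 150 than at day 0, beside 56.3% of all genes. Their median log2 difference was 0.20, against 0.02 over all genes. The summed hypothalamus markers were at 899 to 1033.4 FPKM at day 150, against 640.87 to 776.01 FPKM at day 0. At day 120 their sum was at 832.14 to 1008.71 FPKM. LOC101160739 (isotocin-like) and npy led this sum, with means of 357 and 237 FPKM over the 20 libraries, of 821 FPKM. Telencephalon markers were at 176.64 to 194.7 FPKM at day 150, against 136.11 to 167.36 FPKM at day 0. At day 120 they were at 143.38 to 205.21 FPKM. Markers listed for glia, blood and immune cells summed to 141.58 to 294.57 FPKM at day 150, against 323.92 to 442.81 FPKM at day 0. At day 120 this sum was at 246.71 to 473.6 FPKM. The 5 tested were mpz, mbp, olig2, kdr and ptprc. The myelin gene mpz made up most of the sum, with a mean of 303 FPKM over the 20 libraries, of 349 FPKM. The 141.58 FPKM belongs to day 150 replicate 2, the library with the highest pomc, and the lowest such sum in the other 19 libraries was 246.71 FPKM. No marker of these 4 lists passed a limma test between day 150 and day 0, where 0% of all genes passed. With the mean log2 level of the pituitary markers as a covariate, the difference in pomc between day 150 and day 0 was 0.57 (95% interval -0.41 to 1.54, limma, adjusted p = 0.748). This covariate was 2.11 in day 60 replicate 1, against 2.68 to 3.01 in the other 19 libraries. All values with the covariate therefore lean on that library, and the covariate was not tried without it. Between day 150 and day 120, where 8 of the 16 pituitary markers and 50.8% of all genes were higher at day 150, the pomc difference was 1.21 with the covariate (limma, adjusted p = 0.465). The covariate also brought F over all days to 2.46, F over days 7 to 150 to 2.58, the slope to 0.099 per 30 days, and the log2 difference to -0.70 for day 60 against day 0, -0.31 for day 90 against day 0, 0.22 for day 30 against day 7, -0.17 for day 60 against day 30 and 0.39 for day 90 against day 60. In such bulk samples, fewer cells of a type and less RNA per cell cannot be told apart, and the part of tissue makeup in the pomc level was not tested beyond these values.

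A further 2 entries are described as pro-opiomelanocortin, and both were far below pomc. LOC101168338 (pro-opiomelanocortin B) lay between 1.41 and 4.04 FPKM with a mean of 2.55 FPKM. It did not pass over the 7 days (limma, adjusted p = 0.865), and its log2 difference of day 150 from day 0 was 0.19 (limma, adjusted p = 0.846). LOC101164777 (pro-opiomelanocortin-like) lay between 0.29 and 1.83 FPKM and was too low to be tested. In day 60 replicate 1, where pomc was at 8.25% of the median of the other 19 libraries, LOC101168338 was at 102% of its own.

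Against the other pituitary hormone genes pomc was at rank 3 or higher in every library. These are 9 genes, and with pomc they make 10. The growth hormone gene LOC101171460 (somatotropin) had the highest mean over the 20 libraries, 2015 FPKM, followed by LOC101172582 (prolactin-1), which regulates ion balance in freshwater fish, at 1360 FPKM and pomc at 1303 FPKM. LOC100049402 (somatolactin), a fish hormone of the intermediate lobe, had 315 FPKM. The glycoprotein alpha subunit cga had 243 FPKM, the gonadotropin beta subunits fshb 133 FPKM and lhb 79.1 FPKM, and LOC101171658 (thyrotropin beta-like) 38.2 FPKM. The entries prl at 0.28 FPKM and LOC105354380 (thyrotropin beta) at 0.53 FPKM were too low to be tested. In each of the 20 libraries pomc exceeded all of these but LOC101171460 and LOC101172582, which it exceeded in 7 and 9 libraries.

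**Figure D3:**
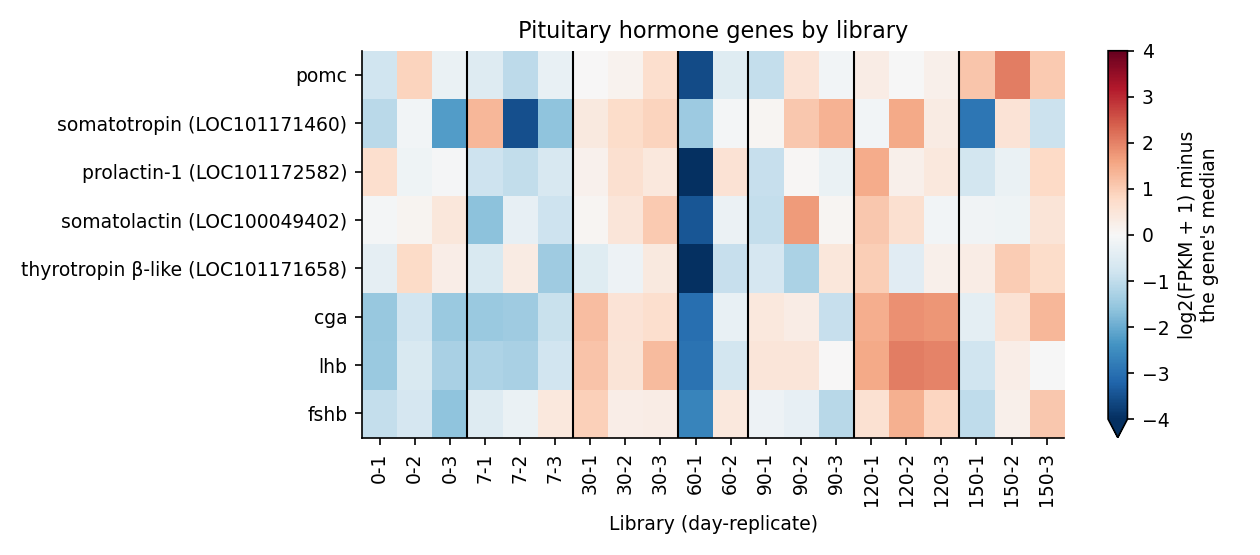
Level of pomc and the other hormone genes in each library (columns, day and replicate), as log2(FPKM + 1) minus the median of the gene over the 20 libraries (colour). The column of day 60 replicate 1 is low for pomc and most hormone genes, with values below the scale drawn at its end, and pomc is highest in the 3 columns of day 150.

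At day 150 pomc was the most abundant hormone gene in all 3 libraries. Its share of the summed FPKM of the 10 genes was 60.4%, 50.3% and 33.5%, a mean of 48.1 ± 13.6% (SD, n = 3). In replicate 3 pomc, at 2191.67 FPKM, was nearly level with LOC101172582, at 2181.53 FPKM. In replicate 1 LOC101171460 was at 228.32 FPKM, against its mean of 2015 FPKM over all libraries. The share was 27.8 ± 11.1% at day 0, 24.5 ± 10.7% at day 7 and 19.2 ± 2.60% at day 30. It was 13.4 ± 3.07% at day 60 (n = 2), 16.4 ± 3.11% at day 90 and 15.8 ± 3.78% at day 120. Over all libraries pomc was at rank 1 of the 10 in 5, at rank 2 in 6 and at rank 3 in 9, and it had rank 3 in all 3 libraries of day 120.

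A ratio of pomc to another hormone gene is taken within 1 library. The amount of pituitary in the block cancels only as far as that amount scales both RNAs alike. In day 60 replicate 1 the genes were not equally low, with LOC101172582 at 0.365% of its median in the other 19 libraries. There pomc was at 8.25% and LOC101171460 at 34.5%. Whether the parts of the pituitary were sampled alike in each library was not tested. For 7 hormone genes and their sum, the log2 ratio was tested over the 7 days by permuting the day labels 100000 times, with Benjamini-Hochberg adjustment over the 8 ratios. The ratio to lhb differed between days (F = 15.1, permutation p = 2.0e-05, adjusted p = 0.00016). So did the ratio to cga (F = 5.46, permutation p = 0.00613, adjusted p = 0.0245) and that to the sum (F = 5.11, permutation p = 0.0102, adjusted p = 0.0271). The ratios to LOC101171460 and fshb had an adjusted permutation p of 0.0539 each, and those to LOC100049402, LOC101172582 and LOC101171658 had 0.116, 0.437 and 0.667. Leaving out 1 library brought some of these past the threshold. The ratio to LOC101171460 passed without day 7 replicate 1 (F = 7.00, adjusted permutation p = 0.00683) or its replicate 2 (F = 4.12, adjusted permutation p = 0.0324). That to fshb passed without day 0 replicate 1, day 7 replicate 1, day 90 replicate 1 or day 150 replicate 3, with F between 3.66 and 6.35 and an adjusted permutation p between 0.0145 and 0.0480. That to LOC101172582 passed without day 60 replicate 2 (F = 6.75, adjusted permutation p = 0.0247). Over all days no ratio had a slope that passed, with adjusted permutation p-values between 0.577 and 0.661. Over days 0 to 120 alone, a setting chosen after seeing the data, the slope per 30 days was -0.53 for lhb (adjusted permutation p = 0.00144) and -0.50 for cga (adjusted permutation p = 0.00460).

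The lhb transcript, which encodes the beta subunit of luteinizing hormone, had 20.16, 37.99 and 22.98 FPKM on day 0. It had 169.36, 241.49 and 231.05 FPKM on day 120. Day 150 gave 32.80, 69.94 and 57.11 FPKM. Its libraries of day 120 lie above those of both other days, and the share of all genes for which this holds was not computed. The log2 ratio of pomc to lhb was 5.25 ± 0.41 at day 0, 4.65 ± 0.24 at day 7 and 3.48 ± 0.39 at day 30. It was 3.997 ± 0.62 at day 60 (n = 2), 3.67 ± 0.82 at day 90, 2.49 ± 0.42 at day 120 and 5.77 ± 0.46 at day 150 (SD, n = 3 elsewhere). The libraries of day 150, at 5.24 to 6.10, did not overlap those of day 120, at 2.13 to 2.95. Of the 7 hormone genes lhb alone passed the limma test over all days (F = 17.2, adjusted p = 0.0114), which called 0.0941% of all genes. A ratio that moves with the days therefore need not show a change of pomc itself. The adjusted p of the ratio to lhb stayed at 0.00432 or lower in all 23 alternatives run.

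The ratio to cga, the alpha subunit shared by gonadotropins and thyrotropin, was 3.74 ± 0.47 on the log2 scale at day 0, 1.01 ± 0.35 at day 120 and 3.43 ± 1.02 at day 150 (SD, n = 3 each). Leaving out day 120 replicate 2 ended this call (F = 3.9998, adjusted permutation p = 0.0598). So did leaving out its replicate 3 (F = 4.17, adjusted permutation p = 0.0516) or day 0 (F = 4.21, adjusted permutation p = 0.0671).

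The ratio to the sum of the other hormone genes was -1.45 ± 0.86 at day 0, -2.44 ± 0.43 at day 120 and -0.12 ± 0.81 at day 150 on the log2 scale (SD, n = 3 each). Leaving out any 1 of 5 libraries ended this call. For replicate 1 of day 60, leaving it out gave an F of 4.35 (adjusted permutation p = 0.0513). For day 120 the F was 4.65 without its replicate 2 (adjusted permutation p = 0.0598) and 4.93 without its replicate 3 (0.0510). For day 150 it was 3.25 without its replicate 1 (adjusted permutation p = 0.116) and 3.47 without its replicate 2 (0.0786). Over days 0 to 120 alone, a setting chosen after seeing the data, F was 1.55 (adjusted permutation p = 0.392).

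**Figure D4:**
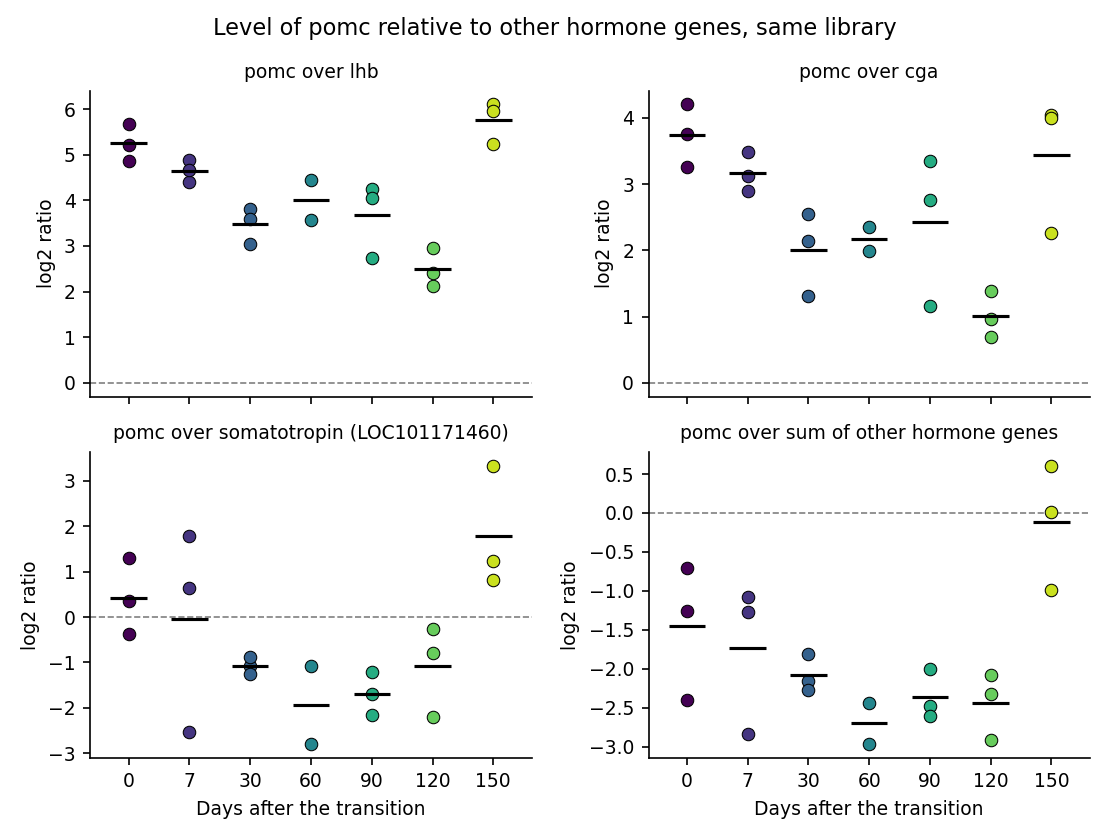
Log2 ratio of pomc to lhb, to cga, to LOC101171460 (somatotropin) and to the sum of the other hormone genes in the same library (vertical axes), by day. Points are libraries and lines are day means. For lhb the libraries of day 150, at 5.24 to 6.10, lie above those of day 120, at 2.13 to 2.95.

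Most other hormone genes had lower mean levels at day 150 than at day 120, unlike pomc. Of the 7 tested, 1 was higher at day 150, LOC101171658, beside 50.8% of all genes. The median log2 difference of the 7 was -0.88, while the median of all genes was 0.003. None of the 7 passed (limma, smallest adjusted p = 0.302, for lhb with -2.03), in a test that called 0% of all genes. Against day 0, 5 of the 7 were higher at day 150, beside 56.3% of all genes, with a median of 0.46 where all genes had 0.02.

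Across libraries pomc went with most other hormone genes by Pearson's r, and no such relation passed without day 60 replicate 1. Over 20 libraries on the log2 scale, Pearson's r was 0.806 for LOC101171658 (adjusted permutation p = 0.00343), with a Spearman's rho of 0.621 (adjusted permutation p = 0.0195). For LOC100049402 r was 0.714 (adjusted permutation p = 0.00712) and rho 0.592 (adjusted permutation p = 0.0195). For LOC101172582 r was 0.735 (adjusted permutation p = 0.0165) and rho 0.398 (adjusted permutation p = 0.117), while for LOC101171460 r was 0.252 (adjusted permutation p = 0.284) and rho 0.197 (adjusted permutation p = 0.401). Without the 2 libraries farthest from the median of each hormone gene, r was 0.533, 0.384, 0.208 and 0.362 in the same order. Of the 7 relations tested, adjusted together, 6 passed by Pearson's r and 3 by Spearman's rho (LOC101171658, LOC100049402 and cga) with all libraries. By r 0 passed without day 60 replicate 1, where r was between 0.160 and 0.531 and the adjusted permutation p between 0.133 and 0.512. Spearman's rho without that library is not reported here. Within days, as the correlation of deviations from the day means, r was between 0.461 and 0.795, and that library was still included.

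In day 60 replicate 1 the low level of pomc came with low levels of the other hormone genes. LOC101172582 was at 4.79 FPKM there, 0.365% of its median in the other 19 libraries, and LOC101171658 at 1.73%. LOC100049402 was at 8.65%, cga at 9.52%, lhb at 11.2%, fshb at 13.4% and LOC101171460 at 34.5%. It was the lowest of the 20 libraries for 6 of the 7 hormone genes and 7 of the 16 pituitary markers. It was the lowest for 0 of 15 hypothalamus markers, 0 of 9 telencephalon markers and 884 of all 15947 genes (5.54%).

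Among genes with a symbol, those whose pattern over the 20 libraries was most like that of pomc were led by the pituitary transcription factors lhx3 and pitx1. The 10 with the highest Pearson's r on the log2 scale included lhx3 at 0.87 and pitx1 at 0.85, both needed for pituitary formation, then eya4 at 0.79, anxa4 at 0.78, kiaa1324 at 0.77, gas1 and crhbp at 0.75, and eef1akmt3 and mfsd13a at 0.74. The median r over all other genes tested was 0.03, and 5 genes had an r above 0.8. Without day 60 replicate 1, r was 0.69 for lhx3, 0.65 for pitx1 and 0.72 for crhbp. It was 0.63 for eya4, 0.60 for gas1, 0.55 for eef1akmt3 and 0.53 for anxa4, and 0.38 for both kiaa1324 and mfsd13a. Within days, with all libraries, r was 0.76 for lhx3, 0.82 for pitx1 and 0.71 for crhbp, and lowest of the 10 for eya4, at 0.45. The lowest r were those of fermt3 at -0.79, chst11 at -0.75, tppp at -0.72, and gdpgp1 and fosb at -0.70. Without day 60 replicate 1 these were -0.48 for fermt3 and chst11, -0.35 for tppp, -0.64 for gdpgp1 and -0.46 for fosb. In day 60 replicate 1 fermt3 was at 27.07 FPKM and pomc at 88.56 FPKM. All these values come from the same libraries and share their composition.

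**Figure D5:**
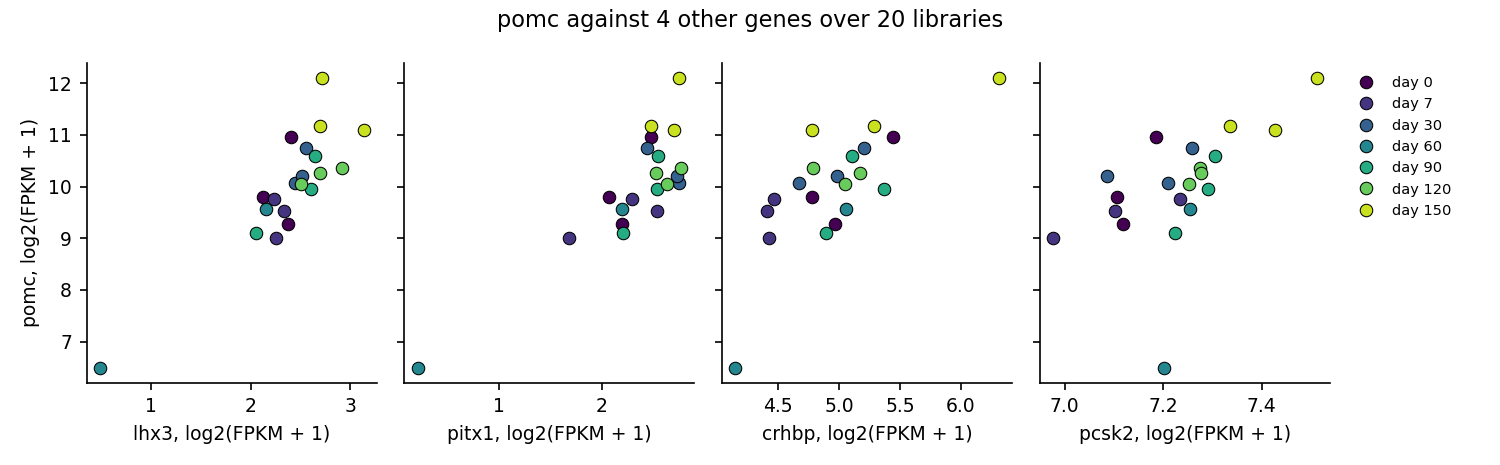
Level of pomc (vertical axes) against lhx3, pitx1, crhbp and pcsk2 (horizontal axes) in the 20 libraries, as log2(FPKM + 1), coloured by day. The point of day 60 replicate 1 lies far from the others for lhx3 and pitx1, and Pearson's r for lhx3 is 0.87 with it and 0.69 without it.

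The gene crhbp, which encodes a protein that binds corticotropin-releasing hormone, was at 38.13, 78.50 and 26.44 FPKM at day 150, against 30.22, 42.41 and 26.33 FPKM at day 0. Its highest library, day 150 replicate 2, was also the highest for pomc, while the 2 groups overlapped. The log2 difference was 0.40 (limma, adjusted p = 0.694). The gene crh, the corticotropin-releasing hormone that drives pomc cells, was at 57.5 ± 3.44 FPKM at day 150 and 47.2 ± 7.47 FPKM at day 0 (SD, n = 3 each), a difference of 0.29 (limma, adjusted p = 0.478).

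No gene that processes the precursor passed a test in any comparison of days, and these tests called between 0% and 0.0941% of all genes. Of the 9 prohormone processing genes, all tested, 0 passed at day 150 against day 0, where 0% of all genes passed. All 9 were higher, with a median log2 difference of 0.10, while 56.3% of all genes were higher, with a median of 0.02. The convertase pcsk2, which is needed for the melanotropin cuts, was at 160.51, 181.47 and 171.09 FPKM at day 150, against 137.96, 144.57 and 136.83 FPKM at day 0. All 3 libraries of day 150 exceeded all 3 of day 0, as was the case for 9.33% of all genes tested. The log2 difference of 0.29 did not pass (95% interval 0.14 to 0.43, limma, adjusted p = 0.220). Nor did the slope of 0.05 per 30 days (limma, adjusted p = 0.171). The convertase pcsk1, which makes corticotropin and was chosen after its values were seen, was at 84.5 ± 3.59 FPKM at day 150 and 79.7 ± 3.48 FPKM at day 0. The highest mean levels in the list were those of scg5, a chaperone of pcsk2, at 358 FPKM, cpe, a carboxypeptidase that trims peptide ends, at 292 FPKM, pcsk2 at 150 FPKM and pam, which amidates peptides, at 114 FPKM. For pcsk2, r with pomc was 0.56, and 0.77 without day 60 replicate 1.

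Of 13 secretory granule genes, all tested, 0 passed between day 150 and day 0, in a test that called 0% of all genes. Of the 13, 7 were higher, with a median of 0.03, beside 56.3% of all genes, with a median of 0.02. The list was led by snap25, a part of the membrane fusion machinery, at a mean of 1103 FPKM, with LOC101172108 (secretogranin-2) at 485 FPKM, chga at 187 FPKM and syt1 at 184 FPKM. These granule genes are also used by neurons, which the block holds.

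Of 13 regulators of corticotropes and melanotropes, 11 were tested and 0 passed between day 150 and day 0, where 0% of all genes passed. Of the 11, 8 were higher, with a median of 0.05, beside 56.3% of all genes, with a median of 0.02. Transcription factors with high means included neurod1 at 37.6 FPKM, stat3 at 18.4 FPKM and nr4a3 at 6.89 FPKM. Of 18 hypothalamic regulators, 16 were tested and 0 passed in the same test. Of the 16, 10 were higher, with a median of 0.18, beside the same 56.3% of all genes. The most abundant were the neuropeptide genes LOC101160739 (isotocin-like) at 357 FPKM, npy at 237 FPKM, oxt, which the deposited table describes as vasotocin, at 82.0 FPKM, and crh at 54.8 FPKM.

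The receptor side was low beside pomc itself. Of 5 melanocortin receptors and partners, 4 were tested and 0 passed between day 150 and day 0, where 0% of all genes passed. Of the 4, 1 was higher, with a median of -0.02, beside 56.3% of all genes, with a median of 0.02. LOC101174292 (melanocortin receptor 5) averaged 9.83 FPKM, LOC101165589 (agouti-related protein, an antagonist) 9.32 FPKM, LOC101174304 (melanocortin receptor 4) 5.18 FPKM and mrap2, a receptor accessory protein, 1.54 FPKM. Of 8 opioid genes, 6 were tested and 0 passed in the same test. Of the 6, 5 were higher, with a median of 0.22, beside the same 56.3% of all genes. The delta opioid receptor entries LOC101161184 and LOC101160812 averaged 23.7 and 13.1 FPKM, beside the precursors pdyn at 22.9 FPKM and penk at 17.7 FPKM.

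Cortisol feeds back on pomc cells through its receptor. Of 10 genes of this feedback, all tested, 0 passed between day 150 and day 0, where 0% of all genes passed. Of the 10, 5 were higher, with a median of -0.02, beside 56.3% of all genes, with a median of 0.02. Over all 7 days 1 of the 10 passed, LOC101157675 (FKBP5-like, a cochaperone of the receptor), with a limma adjusted p of 0.00101 in the test that called 0.0941% of genes. It was at 14.73, 12.44 and 12.96 FPKM at day 90, against 5.40 and 3.87 FPKM at day 60. The rise was 1.36 on the log2 scale (limma, adjusted p = 0.00502), in a test that called 0.0376% of genes. At day 120 it was at 5.02, 7.05 and 5.82 FPKM. The fall against day 90 was 1.05 (limma, adjusted p = 0.0311), in a test that called 0.0251% of genes. In both pairs of days pomc passed no test with all libraries. The most abundant members were fkbp4 at 49.7 FPKM, sgk1 at 24.0 FPKM, per1 at 12.4 FPKM and the receptor nr3c1 at 10.7 FPKM.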

How the data were processed

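Values are FPKM per gene in a single table, as the authors deposited it, with 2 decimals. The submitters' processing notes list Bowtie2 (2.2.5) and RSEM (1.2.12), and the build and annotation were not given in the sources used here. RSEM divides reads among near-identical copies, so close paralogs are uncertain. Of 22615 genes, 21722 identifiers matched a RefSeq table (assembly ASM223467v1, for names only) and 893 were predicted genes, while 9 symbols turned into dates were restored by identifier. Bracketed names are the deposited protein descriptions.

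Days came from the labels. limma (3.58.1) in R (4.3.3) was fitted to log2(FPKM + 1) of the 15947 genes whose mean reached 1 FPKM, with a mean per day over all 20 libraries and 13 residual degrees of freedom. The pseudocount understates differences of low genes. Tests looked at both directions, and a result passed at an adjusted p under 0.05. Ratios and correlations of pomc with hormone genes were tested with 100000 permutations. The fit was tested on simulated data. Python (3.11.15), pandas (2.3.3), numpy (2.4.6), scipy (1.17.1) and matplotlib (3.10.9) made tables and plots.

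Members, gene lists and tests were chosen with earlier results of these data known. Named were the entries described as pro-opiomelanocortin, the hormone genes, the 10 genes with a symbol of highest and the 5 of lowest correlation with pomc, and per list up to 4 members of highest mean level and any that passed. Some genes that this rule names are not reported here. Other settings tried were a smaller pseudocount (0.1), other filters (none, or a mean of 5 FPKM), quantile normalization, totals made equal with or without hormone genes, an untrended prior, array weights, the mean log2 level of pituitary markers as a covariate, spread estimated in the compared groups alone, and leaving out each library.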

Additional observations from a re-analysis of the deposited data

How the results depend on the processing

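Of 435 alternative values of the 14 limma results of pomc, 422 kept their direction and side of the threshold. None of the 14 passed with all libraries, and the F statistics among them have no direction. The count therefore says little about how stable the results are. With the pituitary marker covariate the log2 difference turned to -0.53 for day 30 against day 0, -0.65 for day 120 against day 0 and -0.34 for day 120 against day 90. The other values with the covariate, and its low level in day 60 replicate 1, on which they all lean, stand with the marker levels.

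Leaving out each library moved F over all days between 3.60 and 12.9 and F over days 7 to 150 between 4.31 and 15.5, and both passed only without day 60 replicate 2. It moved the log2 difference from day 0 between -0.041 and 0.81 for day 30, -3.53 and -0.44 for day 60, -0.49 and 0.35 for day 90, and -0.16 and 0.69 for day 120. Day 30 and day 120 turned without day 0 replicate 1. Day 90 turned without day 0 replicate 2 and, with 0.27, without day 90 replicate 1. Other ranges were -3.86 to -0.77 for day 60 against day 30, 0.32 to 3.40 for day 90 against day 60 and -0.054 to 0.69 for day 120 against day 90. Day 150 against day 0 stayed between 1.08 and 1.93.

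F of the ratio to the summed hormone genes ranged between 3.25 and 7.49, and was 1.55 over days 0 to 120, where the adjusted p was 0.392. Between 0 and 6 correlations passed by Pearson's r. The slope of the ratio, in log2 per 30 days, ranged between -0.072 and 0.19 for LOC101171460 and between -0.018 and 0.14 for fshb. It was 0.080 for lhb over days 7 to 150. Over days 0 to 120 it was -0.039 for LOC101172582, -0.40 for LOC101171460, -0.19 for fshb, -0.11 for LOC100049402 and -0.23 for the sum, none of which passed, while -0.53 for lhb and -0.50 for cga did. No slope passed with all days. The cause of these shifts was not tested.

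No paired analysis was possible because the labels number each library once across all days. The replicate numbers used here count the libraries within each day, and the same number on different days marks no link. Depth is unknown, and with 2 or 3 libraries a day a pomc difference from day 0 has an SE of 0.60 on the log2 scale, or 0.67 for day 60.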

Other observations

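Some genes tied to pomc cells were named after their values were seen. LOC101156980, a further entry described as a binding protein of corticotropin-releasing factor, was at 27.1 ± 4.69 FPKM at day 150 and 17.3 ± 1.22 FPKM at day 0 (SD, n = 3 each), a log2 difference of 0.61 (limma, adjusted p = 0.165). LOC101166997 (corticotropin-releasing factor receptor 1) averaged 3.06 FPKM over the 20 libraries, and drd2, the dopamine receptor that restrains melanotropes in fish, averaged 6.03 FPKM. The melanotrope factor pax7 averaged 1.38 FPKM. LOC101168730 (prophet of Pit-1-like), a pituitary transcription factor without a symbol, was at 0.19 FPKM in day 60 replicate 1 and had an r of 0.85 with pomc over the 20 libraries. Without that library its r was 0.64.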
